A study of Mus musculus with 2 samples.

Results

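The genes of vascular endothelial growth factor (VEGF) and angiopoietin signalling were examined in mouse lung as 5 ligands (Vegfa, Vegfb, Vegfc, Angpt1 and Angpt2) and 5 receptors (Kdr, Flt1, Flt4, Tek and Tie1). Members were found by gene symbol in the platform annotation, with symbols updated through the gene ID. Of these 10 genes, 9 had a probe named for them, out of 13840 named genes on the array, and all 9 were measured. A probe counted as measured when it was above the floor, the median intensity of an array after normalisation, on at least 1 array. No probe in the annotation used here was named for Flt1, and its level was not analysed here. Vegfa had 2 probes and each of the others 1, so 10 probes of 33012 carry the results.

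The samples were lungs of Rosa26-Foxm1 transgenic mice and lungs of wild-type FVB/N mice, 1 array each, both taken 12 weeks after the carcinogen 3-methylcholanthrene had been injected once into the peritoneum at 15 µg/g. Mice of both groups had also received the lung tumour promoter butylated hydroxytoluene in 6 weekly injections, the first of 150 µg/g and the later ones of 200 µg/g, so no untreated lung was compared. The RNA of an array was a pool of 3 mice, from the left lobes. The wild-type mice were males by their labels, neither sex nor strain is labelled for the Rosa26-Foxm1 mice, and no age is labelled for either. The Rosa26 promoter is known to be active in most tissues, but which lung cells made Foxm1 is not given in the labels. The Foxm1 probe stood at 1.23 in Rosa26-Foxm1 and 1.13 in wild-type lung, near the floor on both arrays, and gives no check of the genotype.

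VEGF proteins are secreted growth factors that bind receptor tyrosine kinases on endothelial cells, with VEGFR2 (Kdr) carrying most of the signal for endothelial growth and survival and VEGFR3 (Flt4) serving lymphatic vessels. In the lung, alveolar epithelium makes much of the VEGF-A that maintains the capillary bed. Angiopoietin 1, made largely by mesenchymal cells, activates the receptor TIE2 (Tek) and stabilises vessels, whereas angiopoietin 2, released by endothelium, often opposes it; TIE1 is a partner receptor that modifies TIE2 signalling.

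All 4 measured receptors were lower in Rosa26-Foxm1 than in wild-type lung, with log2 differences between -0.93 and -0.38 and a median of -0.73. Flt4 (-0.38) was near the floor on both arrays, so its direction is uncertain, and the other 3 were at least 1.5-fold lower. The ligands were divided. Vegfa and Angpt1 were lower by about as much as the receptors, and Vegfb was somewhat higher (0.41). Vegfc (-0.19) and Angpt2 (0.27) differed little. The ligand median was -0.19. In all, 7 of 9 members were below 0, beside 56% of measured genes. At the 1.5-fold size 5 of 9 members were lower (Tie1, Kdr, Angpt1, Vegfa and Tek), and no member was higher by that much. Over all 9518 measured genes, 8.45% were at least 1.5-fold lower and 7.08% at least 1.5-fold higher. No member reached 2-fold, which 1.51% of measured genes did downward and 1.98% upward. On the deposited values, without quantile normalisation, 3 of 9 members were at least 1.5-fold lower, beside 8.48% of measured genes. Kdr and Tek fell short there, at 1.47-fold and 1.45-fold lower.

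With 1 array per group there was no spread between replicates and no test was possible. The error given is the probe SD, the SD of the log2 difference between 2 probes of a gene divided by the square root of 2. Its value was 0.31, taken from the 2 brightest measured probes of each of 317 genes, with 0.37 for the dimmer and 0.23 for the brighter pairs. Variation from mouse to mouse, and any error common to a whole array, is not in it, and precision is limited by having 1 array a group. Deposited intensities had a median of 1.00 on each array, and the 95th percentile was 71.8 in Rosa26-Foxm1 and 67.5 in wild-type lung. Pathway and marker values below are quantile normalised. Their counts past 1.5-fold are to be read beside the 8.45% lower and 7.08% higher of all measured genes. Both arrays carried bright lung markers, such as the club cell protein gene Scgb1a1 (1767 in Rosa26-Foxm1 and 2544 in wild-type lung) and the surfactant protein gene Sftpc (859 in Rosa26-Foxm1 and 1228 in wild-type lung).

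**Figure D1:**
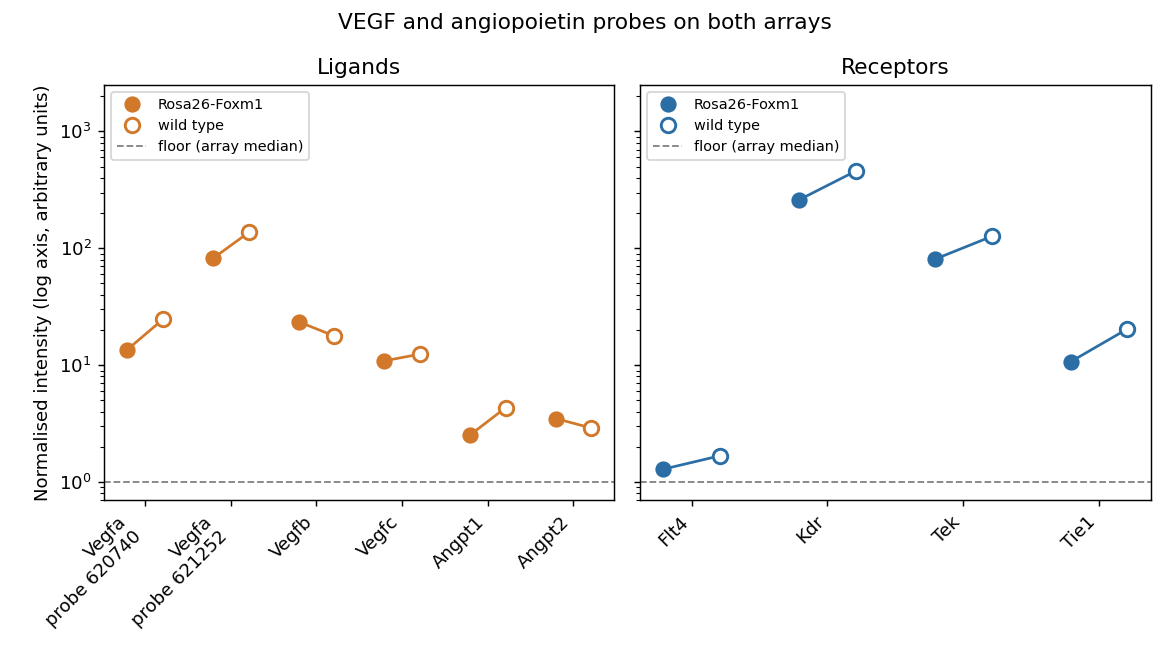
Quantile-normalised intensity (log axis, arbitrary units) of each probe for a VEGF or angiopoietin ligand (left panel) and receptor (right panel), with the Rosa26-Foxm1 array as a filled point and the wild-type array as an open point to its right. The 4 receptor lines all climb towards wild type, while the ligand lines run in both directions; heights of different probes cannot be compared, and there are no error bars because each group has 1 array.

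Among the receptors, Kdr, which encodes VEGFR2, had a deposited intensity of 279.6 in Rosa26-Foxm1 and 410.2 in wild-type lung. After quantile normalisation the values were 260.2 in Rosa26-Foxm1 and 458 in wild-type lung, a log2 difference of -0.82 ± 0.31 (1.76-fold lower). The probe was among the brightest on both arrays, at percentile 98.8 of all probes in Rosa26-Foxm1 and 99.4 in wild-type lung. The size of its difference depended on the scaling, from -0.55 on the deposited values to -0.82, with the same sign throughout.

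Flt4, which encodes VEGFR3, was near the floor of 1.00 on both arrays. Its deposited intensities were 1.27 in Rosa26-Foxm1 and 1.71 in wild-type lung, and its normalised log2 difference was -0.38 ± 0.31 (1.30-fold lower), about the size of the 0.37 found for dimmer pairs. Among the 1585 genes of like brightness the 5th percentile was -0.97, and 18.8% of all measured genes had a lower difference than Flt4.

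Tek, which encodes the angiopoietin receptor TIE2, had deposited intensities of 83.2 in Rosa26-Foxm1 and 121 in wild-type lung. Normalised, it stood at 80.7 in Rosa26-Foxm1 and 126 in wild-type lung, a log2 difference of -0.65 ± 0.31 (1.56-fold lower). Tie1 showed the largest difference of the members, with deposited intensities of 10.7 in Rosa26-Foxm1 and 20.2 in wild-type lung and a log2 difference of -0.93 ± 0.31 (1.91-fold lower). Of 9518 measured genes, 198 had a lower difference than Tie1. Its position among all probes was percentile 79.3 in Rosa26-Foxm1 and 86.1 in wild-type lung. Scaling hardly moved Tie1, which ran from -0.93 to -0.89 over all settings tried. Tie1 minus Tek was -0.28 on the log2 scale, smaller than the 0.44 that the probe SD gives for a difference of 2 probes.

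RefSeq promoter windows of GRCm38.p6, from 250 bases before to 50 bases after a transcript start, were matched for 8 of the 10 members. They are shown for the 4 measured receptors, all with a difference below 0 but Flt4 near the floor. Those of Vegfa and Vegfb, the VEGF ligands that differed in opposite directions, are shown too. Endothelial promoters are known to be bound by ETS factors, whose core is GGAA, and forkhead factors, Foxm1 among them, bind variants of TAAACA. Capitals mark GGAAG (or its reverse complement CTTCC) and TAAACA (or TGTTTA). The sequences are those of the C57BL/6J reference, not of the mice measured.
Kdr (chr5:75978406-75978705, minus strand): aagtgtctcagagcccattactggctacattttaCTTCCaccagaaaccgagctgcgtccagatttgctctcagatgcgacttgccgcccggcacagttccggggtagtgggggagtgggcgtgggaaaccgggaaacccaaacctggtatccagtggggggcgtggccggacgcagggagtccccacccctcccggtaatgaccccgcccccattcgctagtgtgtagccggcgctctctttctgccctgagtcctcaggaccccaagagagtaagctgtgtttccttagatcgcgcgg
Flt4 (chr11:49609429-49609728, plus strand): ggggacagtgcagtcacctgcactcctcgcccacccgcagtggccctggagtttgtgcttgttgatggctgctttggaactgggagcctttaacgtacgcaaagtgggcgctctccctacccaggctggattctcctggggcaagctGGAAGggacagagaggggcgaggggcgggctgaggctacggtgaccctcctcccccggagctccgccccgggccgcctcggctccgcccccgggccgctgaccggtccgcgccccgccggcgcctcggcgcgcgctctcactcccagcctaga
Tek (chr4:94739039-94739338, plus strand): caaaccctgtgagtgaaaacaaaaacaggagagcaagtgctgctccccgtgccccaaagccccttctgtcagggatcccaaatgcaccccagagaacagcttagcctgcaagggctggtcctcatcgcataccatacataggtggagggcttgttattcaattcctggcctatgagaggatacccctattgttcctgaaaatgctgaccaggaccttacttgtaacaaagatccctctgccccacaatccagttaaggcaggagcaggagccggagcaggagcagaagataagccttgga
Tie1 (chr4:118489800-118490099, minus strand): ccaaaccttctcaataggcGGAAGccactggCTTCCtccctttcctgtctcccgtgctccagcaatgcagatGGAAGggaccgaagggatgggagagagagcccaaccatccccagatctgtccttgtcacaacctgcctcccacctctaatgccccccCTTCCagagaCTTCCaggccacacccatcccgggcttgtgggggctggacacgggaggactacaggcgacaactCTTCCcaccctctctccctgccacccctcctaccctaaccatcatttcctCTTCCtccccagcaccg
Vegfa (chr17:46032328-46032627, minus strand): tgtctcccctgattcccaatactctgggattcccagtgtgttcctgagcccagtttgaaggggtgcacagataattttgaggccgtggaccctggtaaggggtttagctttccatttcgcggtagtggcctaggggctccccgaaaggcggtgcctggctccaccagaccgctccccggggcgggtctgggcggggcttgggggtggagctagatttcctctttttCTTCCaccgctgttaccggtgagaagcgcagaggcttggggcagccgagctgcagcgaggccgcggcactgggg
Vegfb (chr19:6987602-6987901, minus strand): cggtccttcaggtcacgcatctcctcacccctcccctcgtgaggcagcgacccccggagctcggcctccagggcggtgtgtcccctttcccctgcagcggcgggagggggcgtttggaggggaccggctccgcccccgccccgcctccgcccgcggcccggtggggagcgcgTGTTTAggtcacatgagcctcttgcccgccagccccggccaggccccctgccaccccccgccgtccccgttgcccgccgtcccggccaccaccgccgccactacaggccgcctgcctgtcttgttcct
At least 1 GGAAG, on either strand, lay in the windows of Kdr (1), Flt4 (1), Tie1 (7) and Vegfa (1, in the window shown), and in that of Flt1 (3), which had no probe. Tek, Vegfb and Vegfc had none. Of all 32851 windows in the table, 71.4% hold this motif, so its presence sets no member apart. The shorter GGAA, which every GGAAG contains, was in all 8 members' windows and in 96.0% of all windows. TAAACA was found in the Vegfb window alone, against 13.4% of all windows, and neither the hypoxia response core ACGTG (19.6% of all windows) nor the AP-1 site TGACTCA (5.20%) was found in the first window of any of the 8 members. A second Vegfa window, further inside the gene, held 1 ACGTG.

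Among the VEGF ligands, Vegfa encodes VEGF-A, the main ligand of VEGFR2. Its brighter probe (621252) had deposited intensities of 84.6 in Rosa26-Foxm1 and 129 in wild-type lung, and its dimmer probe (620740) had 13.7 in Rosa26-Foxm1 and 24.4 in wild-type lung. The log2 differences after normalisation were -0.74 and -0.86, that is 1.67-fold and 1.81-fold lower. Vegfa is the only member with a second probe, and its probes differed by less than the probe SD of 0.31. On the deposited values both probes remained past 1.5-fold, at 1.53-fold and 1.78-fold lower.

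Vegfb encodes VEGF-B, a ligand of VEGFR1 that does not bind VEGFR2. It was 23.7 in Rosa26-Foxm1 and 17.7 in wild-type lung as deposited, a normalised log2 difference of 0.41 ± 0.31 (1.33-fold higher). The value of Vegfb minus that of Vegfa was 1.14 on the log2 scale, 2.62 times the error of 0.44 from the pooled probe SD and 3.51 times the error of 0.33 from the SD of brighter pairs, to which both belong. Vegfc, which encodes a VEGFR3 ligand of lymphatic growth, was 10.8 in Rosa26-Foxm1 and 12.4 in wild-type lung, a difference of -0.19, smaller than the probe SD. The VEGF ligands outside the members lay on both sides of 0. Vegfd, another VEGFR3 ligand, was 35.4 in Rosa26-Foxm1 and 52.4 in wild-type lung (-0.57), and Pgf, placental growth factor, a VEGFR1 ligand, was 4.70 in Rosa26-Foxm1 and 3.52 in wild-type lung (0.42).

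Among the angiopoietins, Angpt1 had deposited intensities of 2.48 in Rosa26-Foxm1 and 4.38 in wild-type lung, both a few times the floor. Its log2 difference was -0.78 ± 0.31 (1.71-fold lower; 0.37 from dimmer pairs), and over the 8 settings in which it was measured it ranged from -0.82 to -0.74. Angpt2 was 3.44 in Rosa26-Foxm1 and 2.95 in wild-type lung, a difference of 0.27, smaller than the probe SD. The value of Angpt2 minus that of Angpt1 was 1.05 on the log2 scale, 2.40 times the error from the pooled probe SD. Both probes are dim, and with the SD of 0.37 found for dimmer pairs the error is 0.52 and the multiple 2.0. The signs of the pair were opposite in each of the 8 settings that measured both. Only the scalings could move them, since the floors and the choice of probe left both values unchanged. Angpt4, a further TIE2 ligand, was below the floor in Rosa26-Foxm1 lung and near it, at 1.30, in wild-type lung (at least 1.30-fold lower). That gap of -0.37 from the floor was about the size of the SD of dimmer pairs, so its direction is uncertain.

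**Figure D2:**
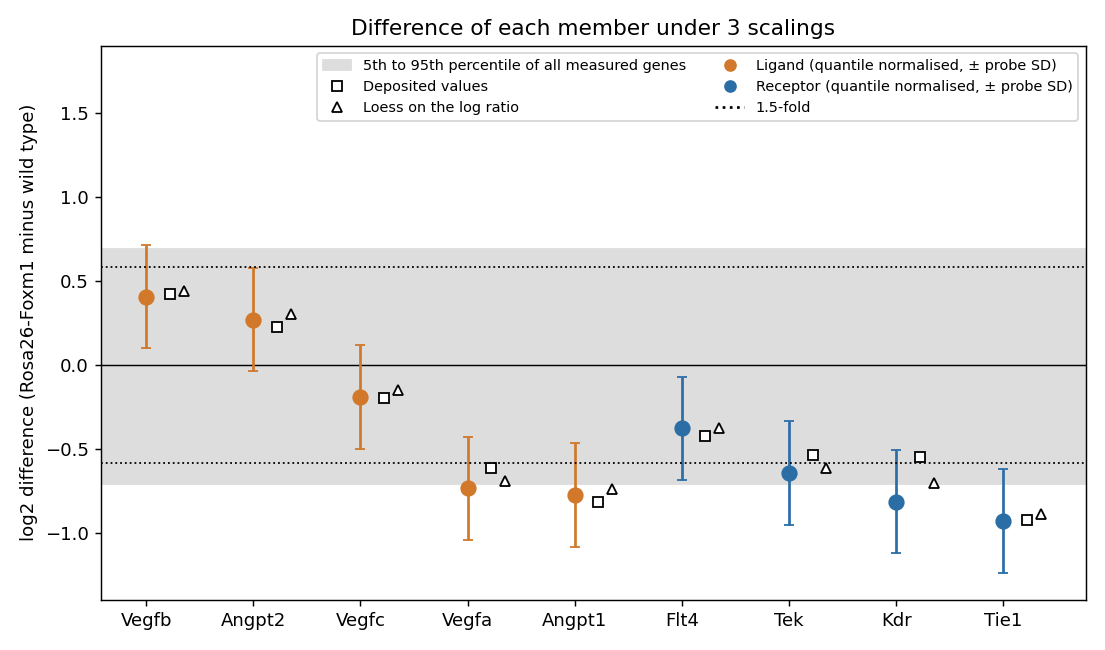
Log2 difference (Rosa26-Foxm1 minus wild type) of each member, ligands in orange and receptors in blue, with the probe SD of 0.31 as error bar; open squares and triangles give the same gene on the deposited values and after loess, and the grey band is the 5th to 95th percentile of all measured genes (-0.71 to 0.69), with dotted lines at 1.5-fold. Tie1, Kdr, Angpt1 and Vegfa lie below the band when quantile normalised, and Vegfb and Angpt2 lie above 0 inside it.

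Receptors and ligands were set against each other by their medians. The receptor median minus the ligand median was -0.54 on the log2 scale. It ranged from -0.62 to -0.35 over the settings tried and kept its sign. The classes overlapped, since Vegfa (-0.74) and Angpt1 (-0.78) lay within the range of the receptors. Every ligand was also paired with every measured receptor, whether or not they bind. In 16 of these 20 pairs the ligand's difference was above the receptor's. Vegfb, Vegfc and Angpt2 each lay above all measured receptors and made up most of them. The pairs share genes and are not independent. For ligands whose main receptor was measured, Vegfa minus Kdr was 0.08, Vegfc minus Flt4 was 0.19 and Angpt1 minus Tek was -0.13. All 3 were smaller than the error of 0.44, whereas Angpt2 minus Tek was 0.92. Vegfb has no such value, because no probe was named for Flt1.

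Read against genes of like brightness, within 0.5 log2 of the member's mean intensity, 5 members lay below the 5th percentile of the difference. That percentile was -0.66 for the 114 genes around Kdr, -0.59 for the 475 around Vegfa, -0.58 for the 491 around Tek, -0.61 for the 1529 around Tie1 and -0.77 for the 1311 around Angpt1. Angpt1 (-0.78) was therefore at the edge of its class. The neighbours of Kdr were themselves shifted downward, with a median of -0.18. That median was between -0.10 and -0.07 around Vegfa, Tek, Tie1 and Angpt1. Vegfb (95th percentile 0.58), Vegfc, Angpt2 and Flt4 lay inside the range of theirs.

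**Figure D3:**
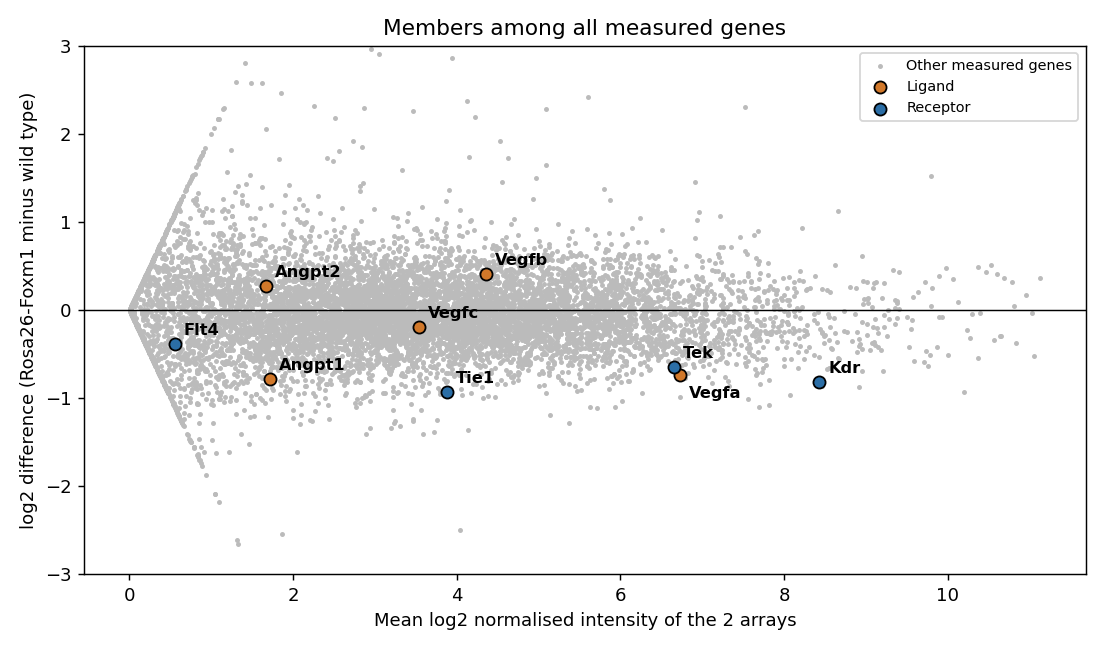
Log2 difference (Rosa26-Foxm1 minus wild type) against the mean log2 normalised intensity of both arrays for 9518 measured genes in grey, ligands in orange and receptors in blue; 11 genes beyond the axis limit of 3 are not drawn. Kdr, Tek, Vegfa and Tie1 lie at the lower edge of the cloud at their brightness, and the straight edges on the left come from genes set to the floor on 1 array.

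The co-receptors and partners of these receptors were also lower or close to 0. All 5 measured of the 7 listed were below 0, with a median of -0.66, beside -0.06 over all measured genes, and 3 of 5 were at least 1.5-fold lower. The VEGF co-receptors Nrp1 (4.78 in Rosa26-Foxm1 and 5.84 in wild-type lung, -0.29) and Nrp2 (-0.13, 1 of its 3 probes measured) differed by less than the probe SD. Cdh5, the VE-cadherin that joins VEGFR2 at endothelial junctions, was 6.30 in Rosa26-Foxm1 and 12.1 in wild-type lung (1.91-fold lower), and the caveolar protein gene Cav1, also expressed in type I alveolar cells, was 1.77-fold lower. Ptprb, the endothelial phosphatase that acts on TIE2, was 358 in Rosa26-Foxm1 and 657 in wild-type lung (1.84-fold lower).

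Genes that carry the signal inside the cell, many of them shared with other cell types, had medians closer to that of all measured genes. Of 10 TIE signalling genes, none was past 1.5-fold in either direction, and the median was -0.13. Akt1, a survival kinase downstream of both receptor families, was lowest at -0.53, and endothelial nitric oxide synthase (Nos3) was at -0.40. Of 13 measured VEGF receptor signalling genes, 2 were at least 1.5-fold lower and 1 higher, with a median of -0.25. The lowest were the phospholipase Plcg1 (4.52 in Rosa26-Foxm1 and 8.70 in wild-type lung, -0.95, 1 of its 2 probes measured), a direct effector of VEGFR2, and the kinase subunit Pik3ca (-0.71). The adaptor gene Sh2d2a was at 1.59 in Rosa26-Foxm1 lung and under the floor in wild type, a gap of no less than 1.59-fold.

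The members were set beside markers of the cells that carry them. Of 25 endothelial markers that are not members, 24 had a difference below 0. A 1.5-fold size was passed by 9 of them downward and by none upward, and the median was -0.48. Their summed normalised intensity was 2203 in Rosa26-Foxm1 and 3175 in wild-type lung, none was at 0 and Erg was below the floor in Rosa26-Foxm1 lung. Kdr, Tek and Tie1 were lower than that median by 0.33, 0.16 and 0.45 on the log2 scale. Of the 25 markers, 3 lay below Tie1, 5 below Kdr and 6 below Tek, so the receptors stood within the range of the list. The lowest markers were the peptide receptor gene Calcrl (-1.15), the junction gene Pecam1 (-1.08) and Cdh5 (-0.94), and the highest were Vwf (0.49), Egfl7 (-0.06) and Ramp2 (-0.08). In whole lung, fewer endothelial cells and less RNA per cell cannot be told apart, and the part of either in the receptor values was not tested.

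Of the capillary markers, all 9 measured non-members were below 0, 5 of them at least 1.5-fold lower, with a median of -0.61. The apelin receptor gene Aplnr (-0.86), a marker of general capillary cells, was near Kdr (-0.82). The carbonic anhydrase gene Car4 (-0.11), bright in capillary endothelium, was the highest of the list and differed by less than the probe SD. Next highest were Cd36 (-0.41) and Plvap (-0.49), so Car4 does not stand for the other capillary markers. Among arterial and venous markers, 5 of 8 were at least 1.5-fold lower (median -0.61), among them the venous regulator Nr2f2 (-0.84) and the arterial connexin gene Gja4 (-0.71). Besides Flt4, the 4 measured lymphatic markers were the hyaluronan receptor gene Lyve1 (-0.36), Nrp2 (-0.13), podoplanin (Pdpn, 0.24), which type I cells also express, and the chemokine gene Ccl21a (0.33), and none was past 1.5-fold. Their summed intensity was 396 in Rosa26-Foxm1 and 365 in wild-type lung. The lymphatic regulator Prox1 was below the floor on both arrays.

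Angpt2 was set beside genes of sprouting endothelium, which makes it. Of the 9 measured tip cell and sprouting genes other than Angpt2, all were below 0 and 4 were at least 1.5-fold lower, with a median of -0.54, and Angpt2 at 0.27 lay above all 9. The lowest of them were the binding protein gene Igfbp3 (7.14 in Rosa26-Foxm1 and 17.1 in wild-type lung, 2.39-fold lower), the pericyte attractant gene Pdgfb (1.94-fold lower) and the basement membrane gene Nid2 (1.59-fold lower). Of the 25 endothelial markers, 24 also lay below Angpt2. Because the Angpt2 value is smaller than the probe SD, its own direction is not established.

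Vegfa was compared with markers of the epithelium that makes it. The 8 measured type I cell markers other than Vegfa had a median of 0.04, with 2 lower than Vegfa (Cav1 at -0.83 and Clic5 at -0.77) and with Emp2 (0.25) highest. Their summed intensity was 1534 in Rosa26-Foxm1 and 1705 in wild-type lung. The 10 measured type II markers had a median of -0.30, from -0.71 for the transcription factor Etv5 to 0.94 for surfactant protein D (Sftpd), and none was lower than Vegfa. Their summed intensity was 7480 in Rosa26-Foxm1 and 7464 in wild-type lung. These close sums hid differences in opposite directions, with 6 markers below 0 and 4 above.

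Hypoxia-inducible factors are known regulators of Vegfa. Epas1, which encodes HIF-2 alpha and is abundant in lung endothelium, was 33.7 in Rosa26-Foxm1 and 72.2 in wild-type lung (2.14-fold lower). Its partner Arnt was dim, at 2.06 in Rosa26-Foxm1 and 3.35 in wild-type lung (1.63-fold lower). The related partner gene Arnt2 was 6.43 in Rosa26-Foxm1 and 1.96 in wild-type lung (3.29-fold higher). The other 4 measured genes of these factors and their regulators were not past 1.5-fold. They were Vhl (-0.17), Egln1 (-0.15), Egln2 (-0.11) and Egln3 (-0.09, below the floor in Rosa26-Foxm1 lung). The median of all 7 was -0.15. No probe was named for Hif1a. Of the 14 other measured targets of these factors, none was past 1.5-fold in either direction, the median was -0.03 and all 14 lay above Vegfa, from Ddit4 (-0.31) and Pgk1 (-0.18) at the low end to Hk2 (0.33) and Car9 (0.30) at the high end. The median changed sign with the setting, between -0.08 and 0.07.

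Angpt1 was set beside mesenchymal markers. The 12 pericyte and smooth muscle markers had a median of -0.34, with 2 at least 1.5-fold lower and 1 higher, and the PDGF receptor gene Pdgfrb of pericytes (-0.79) was the 1 marker below Angpt1. The 10 fibroblast markers had a median of -0.38, with 4 past 1.5-fold downward and 0 upward, and 3 lay below Angpt1, namely nephronectin (Npnt, -0.98), Pdgfra (-0.88) and periostin (Postn, -0.81). Summed intensities were 241 in Rosa26-Foxm1 and 314 in wild-type lung for the pericyte and smooth muscle markers, and 1263 in Rosa26-Foxm1 and 1563.5 in wild-type lung for the fibroblast markers. Their part in the Angpt1 value was not tested.

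Macrophage and lymphocyte markers differed in both directions, and neutrophil markers lay below 0. The 11 macrophage markers summed to 1181 in Rosa26-Foxm1 and 705 in wild-type lung, with a median of 0.43 that ranged from 0.22 to 0.73 over the settings. Gpnmb (4.42), the macrophage elastase gene Mmp12 (3.46) and the lipid receptor gene Trem2 (2.91) were the highest, while the alveolar macrophage receptor genes Siglecf (-1.26) and Marco (-0.75, under the floor in Rosa26-Foxm1 lung) and the macrophage marker Adgre1 (-0.56) were the lowest. The 9 lymphocyte markers summed to 526 in Rosa26-Foxm1 and 163 in wild-type lung, and that gap was the plasma cell gene Jchain, at 413 in Rosa26-Foxm1 and 49.3 in wild-type lung. With Jchain left out, a choice made after its value was seen, the other 8 summed to 114 in both groups. The equal sums hid single genes that differed, as 3 of these 8 passed 1.5-fold upward and 1 downward. Mzb1 was 17.5 in Rosa26-Foxm1 and 5.80 in wild-type lung (1.59). Thy1 was at 2.06 in Rosa26-Foxm1 lung and under the floor in wild type, a gap of no less than 2.06-fold. The B cell genes Ms4a1 (-0.96) and Cd79b (-0.54) were at the low end, and the list's median of 0.05 ran from -0.01 to 0.40 over the settings and turned sign in 2 of them. All 7 measured neutrophil markers were below 0 (median -0.55), with sums of 567 in Rosa26-Foxm1 and 773 in wild-type lung, from Ngp (-1.28) to Retnlg (-0.17). The part of these cells in the members' values was not tested.

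**Figure D4:**
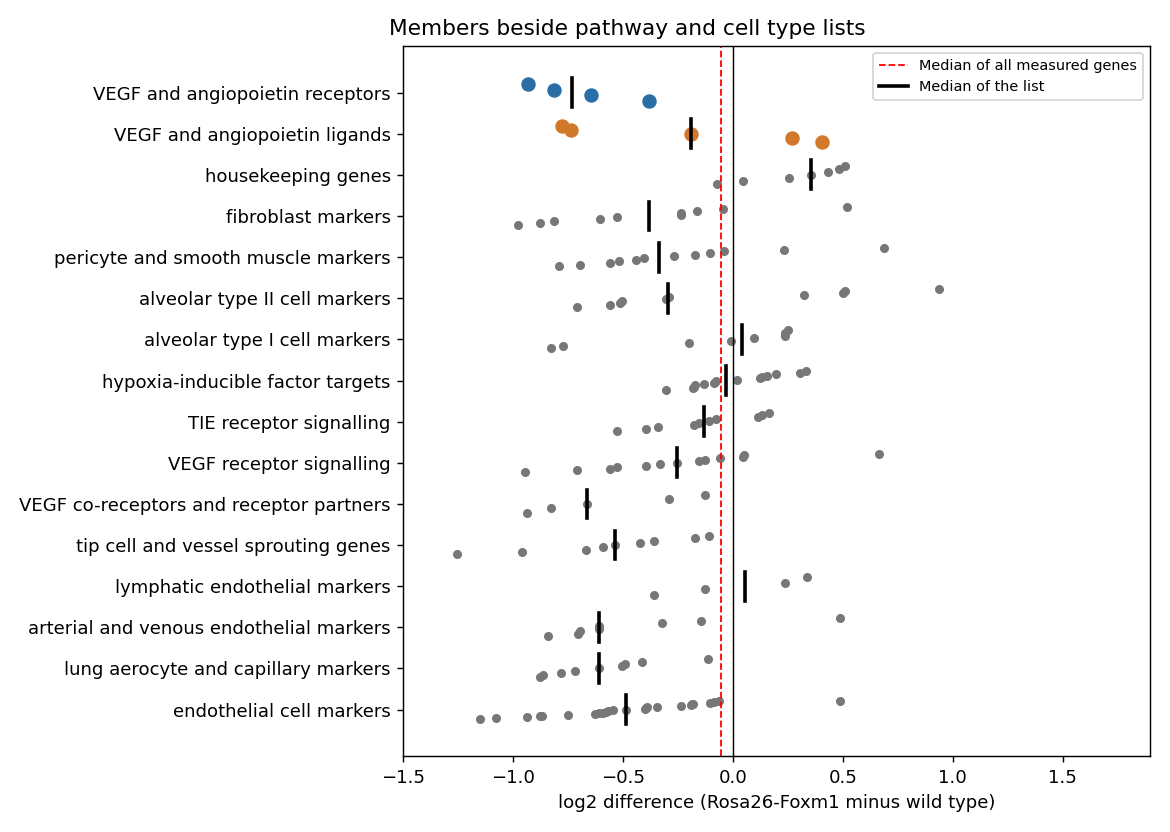
Log2 difference (Rosa26-Foxm1 minus wild type) of the receptors (blue) and ligands (orange) at the top, above the measured genes of the pathway and cell type lists (grey, members left out); black bars are medians and the red dashed line is the median of all measured genes (-0.06). The receptor median of -0.73 lies below the medians of all the lists drawn, and the ligand median of -0.19 between those of the endothelial and type I cell lists.

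Genes often used as references were not at 0. The 7 measured housekeeping genes had a median of 0.36, from -0.07 for Actb to 0.51 for Tbp, so that Vegfb (0.41) and Angpt2 (0.27) lay within their range and the 4 receptors below it.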

How the data were processed

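RNA of Rosa26-Foxm1 and wild-type lung was measured on 1 one-colour array per group. Per the labels' protocols, digoxigenin-labelled cRNA was made from total RNA with an Applied Biosystems kit. The values the authors deposited are linear intensities, 1 per probe and array, with a median of 1.00; the image reading, background correction and scaling behind them were not given in the sources used here. Gene names came from the platform annotation, with symbols brought up to date by gene ID (14411 of 33012 had 1 gene, 247 several and 18354 none). Here the arrays were quantile normalised, raised to a floor at the 50th percentile where lower, and put on the log2 scale. The probe with the highest mean stands for its gene. A fold against an array below the floor is given as a lower bound. The members, lists and the 1.5-fold size were chosen with earlier results of these data known. All members with a probe are named. Other names were limited to measured genes of lists of up to 10, the 3 highest and 3 lowest of longer lists, and 10 fixed pathway genes, and not all that the rule allows are given. Tried besides were the deposited values, scaling on the median, loess with a span of 0.3, no floor or one at the 25th or the 75th percentile, and the median over probes or the dimmest measured probe. Promoter windows were matched by symbol. Scripts ran in Python 3.11.15 with pandas 2.3.3 and were checked on simulated data. No p-value is given.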

Additional observations from a re-analysis of the deposited data

How the results depend on the processing

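The sign of every member's difference was the same under all 8 alternatives that measured it. Most of these could not change it. The floors left each measured member's value as it was, and the choice of probe could move Vegfa alone. Median scaling and the deposited values gave nearly the same differences. Angpt1, Angpt2 and Flt4 were not measured with the floor at the 75th percentile, and the 6 members left there were 3 ligands and 3 receptors. Of those 6, 4 were at least 1.5-fold lower, beside 5.24% of measured genes. With median scaling and with the deposited values, 3 members were at least 1.5-fold lower instead of 5, beside 8.46% and 8.48% of measured genes. Kdr and Tek missed that size there, and no setting put a member past 1.5-fold higher. The ligand median ranged from -0.20 to -0.15 and the receptor median from -0.82 to -0.55. The floor set how many of all genes passed: 804 measured genes were at least 1.5-fold lower and 674 higher with the floor at the 50th percentile, 1546 and 1360 with the 25th, 288 and 237 with the 75th, and 1996 and 1825 with none, where more dim genes are counted. The share of lower genes among those past 1.5-fold was 49.7% after loess against 54.4%. Flt4, Angpt1 and Angpt2 lie within a few times the floor, where the probe SD is larger. No paired analysis was possible because each group has 1 array and the samples share no pairing.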

Other observations

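Secreted and matrix inhibitors of angiogenesis had a median log2 difference of -0.07 over 11 measured genes, 4 at least 1.5-fold lower and 1 higher. The chemokine gene Cxcl9, induced by interferon gamma, was 7.37 in Rosa26-Foxm1 and 3.42 in wild-type lung (2.15-fold higher), and Cxcl10 was at 0.44. The metalloprotease inhibitor gene Timp3, which also blocks binding of VEGF to VEGFR2, was 12.2 in Rosa26-Foxm1 and 22.7 in wild-type lung (1.87-fold lower). The basement membrane collagen gene Col4a3 was at least 2.12-fold lower, with Rosa26-Foxm1 below the floor, and Col4a1 was 1.52-fold lower.

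Transcription factors of endothelium had a median of -0.34 over 21 measured genes, of which 6 passed 1.5-fold downward and 0 upward. The ETS factor gene Erg was at least 1.84-fold lower, with Rosa26-Foxm1 below the floor, Nr2f2 was 1.79-fold lower and Sox18 was 48.7 in Rosa26-Foxm1 and 81.9 in wild-type lung (1.68-fold lower). Etv6 (0.19), the flow-induced Klf2 (0.13) and Klf4 (0.12) were the highest. Platelets carry VEGF and angiopoietin 1, and of their markers the chemokine gene Pf4 was 53.1 in Rosa26-Foxm1 and 27.0 in wild-type lung (1.97-fold higher), beside Ppbp (0.32) and Gp9 (0.27).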
